A study of Mus musculus with 2 samples.

Results

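Brain capillary endothelial cells line the narrowest vessels of the brain. They were taken here from droplet single-cell RNA data by the genes each cell showed. A cell was a member when it held UMIs (distinct tagged RNA molecules) of at least 4 of 6 endothelial genes (Cldn5, Ly6c1, Pecam1, Flt1, Cdh5, Slco1a4). It could show at most 1 of 5 mural genes (Kcnj8, Abcc9, Higd1b, Acta2, Myh11), at most 1 of 5 arterial genes (Bmx, Gkn3, Sema3g, Hey1, Fbln5) and at most 1 of 5 venous genes (Vwf, Slc38a5, Nr2f2, Il1r1, Ackr1), with 4 haemoglobin genes under 1% of its UMIs. The rule found 883 cells among 13466 that had at least 1000 UMIs, at least 500 genes and at most 10% mitochondrial UMIs. The cKO library held 460 of them and the control library 423.

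The cKO host was Cx3cr1 CreER/+ Plxnb2fl/fl, with 2 floxed alleles of Plxnb2, the gene of the guidance receptor Plexin-B2. The control host was Cx3cr1 CreER/+ Plxnb2 fl/+, with 1 floxed allele, although its title calls it WT. Both were on a C57BL/6 background, both carried the Cre driver, both bore an intracranial graft of KR158, a mouse glioblastoma line, and both were dosed with tamoxifen at 100 mg/kg every other day, starting 3 days ahead of the graft and ending 8 weeks after it. The Cx3cr1 locus drives the Cre in microglia and related myeloid cells, and is not known to be active in endothelium. Each genotype gave 1 library from tissue around the injection site. No test between genotypes is therefore possible, genotype, animal and library cannot be told apart, and every interval below covers counting error only.

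The capillary endothelium carries the blood-brain barrier. Tight junctions between its cells close the path for solutes, carriers and efflux pumps decide what crosses, and transport by vesicles is held low. Wnt and Norrin signals from brain tissue maintain these features. Endothelial cells also respond to interferons, the antiviral cytokines, and to inflammatory cytokines, on which they express adhesion molecules and acute-phase proteins.

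The cKO matrix held every barcode of its run and the control matrix only barcodes already called as cells; the same minimum of UMIs was set on both. Whether the control matrix had lost cells above that minimum was not tested, and such a loss would bear on shares of kept cells. Capillary cells had a median of 4969.5 UMIs and 2159 genes in the cKO library and 4587 UMIs and 2043 genes in the control library. Mitochondrial genes made up a median of 4.29% of UMIs in cKO members and 4.56% in control members. Scrublet, a doublet caller, marked 7.83% of cKO members and 10.9% of control members; marked cells were kept, and results without them were computed as an alternative. The libraries shared 0 barcodes among members. Plxnb2 is reported first as the targeted gene. In microglia it had 39.8 CPM in the cKO library, against 211 CPM in the control library (CPM, the usual counts-per-million scale, with the UMIs of the summed cells as the total); the labels do not give the deleted exons, so these 3′ tags may lie outside them. In capillary cells Plxnb2 had 18 UMIs, or 6.20 CPM, in the cKO library, against 40 UMIs, or 16.7 CPM, in the control library. That is a log2 ratio of -1.43, with a 95% interval of -2.32 to -0.60. After each cell was thinned to 1000 UMIs, 0.435% of cKO and 0.709% of control members showed Plxnb2, against 1.58% of cKO and 0.639% of control oligodendrocytes. The ratio of Plxnb2 in capillary cells was -0.055 when 3 of 6 endothelial genes sufficed and -0.24 when the rule was applied to thinned cells.

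The 4 genes that mark these cells were present in nearly every member in both libraries. Cldn5, the main claudin of brain endothelium, was seen in 99.3% of cKO and 98.1% of control members. Slco1a4, an organic anion carrier of brain vessels, was seen in 99.3% of cKO and 95.7% of control members, Flt1, a VEGF receptor, in 99.3% of cKO and 99.5% of control members, and Ly6c1, a surface protein of capillary and arterial endothelium, in 99.6% of cKO and 98.8% of control members. These genes chose the cells, so the shares are a description. After thinning to 1000 UMIs, Cldn5 was seen in 94.6% of cKO and 90.8% of control members, against 1.78% of cKO and 0.894% of control oligodendrocytes, which should lack it. All 6 endothelial genes were detected in 75.9% of cKO and 71.6% of control members. The arterial and venous limits were less clean, because 41.3% of cKO and 36.2% of control members still held a UMI of Vwf, the von Willebrand factor gene, and 20.4% of cKO and 16.8% of control members a UMI of Hey1, a Notch-induced repressor of arterial cells. No arterial and no venous gene at all was found in 150 cKO and 144 control members. "Capillary" is therefore used here for endothelial cells that lack a set of arterial or venous genes.

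Members made up 8.52% of kept cells in the cKO library (exact binomial interval 7.79% to 9.30%), against 5.24% in the control library (4.77% to 5.75%). Of endothelial cells alone they were 52.4% of 878 in the cKO library (49.0% to 55.7%), against 57.1% of 741 in the control library. Arterial cells, those with 2 or more arterial genes only, numbered 146 in the cKO library and 121 in the control library, and venous cells 229 in the cKO library and 168 in the control library. The rule counts detected genes, and detection grows with depth. Venous cells had a median of 10532 UMIs in the cKO library and 9457 in the control library, about double that of the members, so shallow arterial or venous cells can pass as capillary. When the rule was applied to cells thinned to 1000 UMIs, the members numbered 937 in the cKO library and 682 in the control library. Of endothelial cells they were then 93.9% in the cKO library and 93.3% in the control library, so the lower cKO share did not hold. Members just inside the venous limit, with 1 venous gene, had 362 CPM of Slc16a1, a lactate carrier that is higher on the venous side, in the cKO library, against 423 CPM in the control library. Cells just outside it, with 2 venous genes, had 470 CPM in the cKO library and 502 CPM in the control library. Across the endothelial limit the step was far larger. Itm2a, a membrane protein of brain endothelium, had 1370 CPM in cKO and 1656 CPM in control members with 4 endothelial genes, and 48.4 CPM in cKO and 109 CPM in control cells with 3.

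The 10 genes below were taken as those highest in members relative to all other kept cells of the same library, in whichever library the difference was smaller, among genes with at least 100 CPM. They were Cxcl12, Stra6, Ctla2a, Hmcn1, Rapgef4, Slc1a1, Wfdc1, Emcn, Palmd and Adgrl4. Cxcl12, a chemokine that holds CXCR4-bearing leukocytes at the vessel wall, had 5202 CPM in cKO and 4326 CPM in control members. Stra6, the receptor that takes up retinol from its plasma carrier, had 113 CPM in cKO and 125 CPM in control members, a log2 difference over the other kept cells of 2.10 in the cKO library and 2.25 in the control library. Slc1a1, a glutamate carrier, had 177 CPM in cKO and 182 CPM in control members. Emcn, a sialomucin that hinders leukocyte adhesion, had 532 CPM in cKO and 535 CPM in control members. None of the 10 passed 1.5-fold between the libraries. Because the other kept cells include arterial and venous endothelium, these differences are smaller than they would be against non-endothelial cells.

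Against arterial cells, members were higher for Car4, a carbonic anhydrase on the vessel surface, with 932 CPM in cKO members and 905 CPM in control members, against 283 CPM in cKO arterial cells and 220 CPM in control arterial cells. Tmsb10, an actin-binding peptide, was higher by a log2 difference of 1.99 in the cKO library and 2.06 in the control library. Members were lower than arterial cells for Mgp, the matrix Gla protein that limits BMP signals,, with 25.5 CPM in cKO and 21.7 CPM in control members, against 407 CPM in cKO and 373 CPM in control arterial cells. Against venous cells, members were lower for Wnt5a, a Wnt ligand, with 45.8 CPM in cKO members, against 196 CPM in cKO venous cells. In the control library it had 28.0 CPM in members, against 133 CPM in venous cells. Vcam1, an adhesion molecule for leukocytes, was also lower in members than in venous cells in both libraries. Of the genes most in excess over venous cells, Rorb, Luzp2, Pantr1, F3 and Cldn10 were each higher in astrocytes than in members, in both libraries. Rorb had 908 CPM in cKO and 980 CPM in control astrocytes, against 70.3 CPM in cKO and 97.4 CPM in control members. Arterial and venous cells were themselves chosen by arterial and venous genes, so these differences carry no test.

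Between genotypes, 6542 genes had at least 20 CPM on average over both libraries in capillary cells and are called measured. A gene is called higher or lower where its ratio reached 1.5-fold and its counting interval excluded equality. By this rule 155 genes (2.37%) were higher and 157 (2.40%) lower in the cKO members, and the median log2 ratio was 0.03. Genes in the marker lists of other cell types made up 5 of those called higher and 14 of those called lower.

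**Figure D1:**
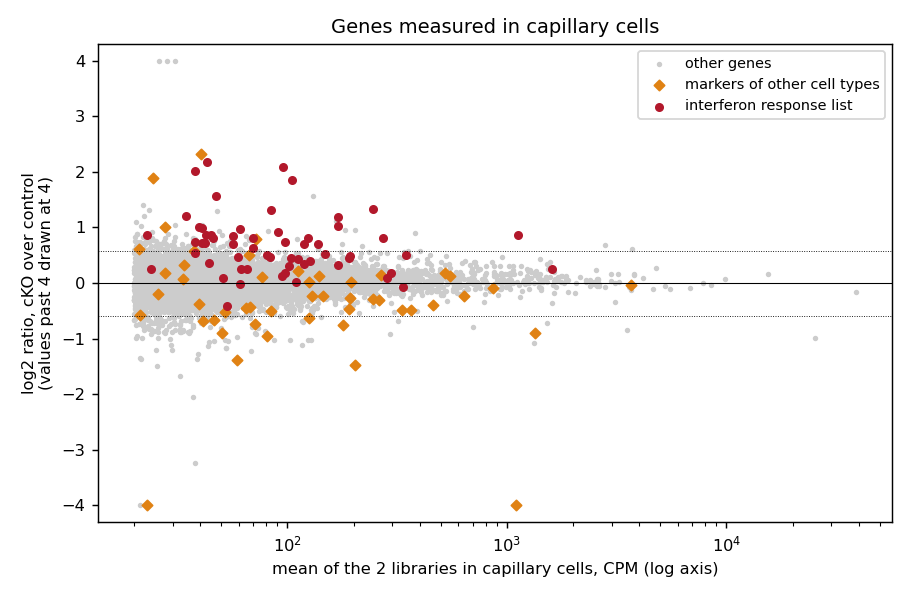
Log2 ratio of CPM, cKO over control (y axis), against the mean CPM of both libraries (log x axis) for the 6542 genes measured in capillary cells; each point is 1 gene, values past 4 are drawn at 4, and dotted lines mark 1.5-fold. Interferon response genes (circles, 59 measured) lie above 0 in 56 cases, while markers of other cell types (diamonds) lie on both sides.

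RNA of neighbouring cell types was present in the members and differed between the libraries, in a direction that depended on the list. The 11 neuron and neuroblast markers summed to 291 CPM in cKO and 214 CPM in control members. The 11 pericyte markers summed to 717 CPM in cKO and 651 CPM in control members. The highest single marker gave 557 CPM in cKO and 491 CPM in control members. The 5 mural genes of the rule went the other way, with 37.2 CPM in cKO and 51.9 CPM in control members. The 9 ependymal markers were level in sum, with 3813 CPM in cKO and 3835 CPM in control members. Of the 4 measured, 2 were called higher and 0 lower, against 2.37% higher over all genes. With only markers at 20 CPM or more in the control library, 0 of 2 were called higher. The lists and the gene given next were lower in cKO members. The 10 oligodendrocyte markers summed to 2552 CPM in cKO members and 3744 CPM in control members; all 10 were measured, all 10 ratios were below 0 and 5 were called lower. The 12 astrocyte markers summed to 2783 CPM in cKO and 3367 CPM in control members, and the 12 microglia markers to 1061 CPM in cKO and 1150 CPM in control members, single markers spanning 24.1 to 196 CPM in cKO and 25.9 to 220 CPM in control members. Ttr, which encodes transthyretin and marks choroid plexus, had 4 UMIs in cKO members, against 5281 UMIs in control members; 98.6% of control members held at least 1, and 55.8% of the UMIs lay in 5 cells. Of the 157 genes called lower, 88 (56.1%) were more than 3-fold higher in pericytes, microglia, astrocytes or oligodendrocytes than in the members. Of the 155 called higher, 24 (15.5%) were. This share was not computed over all measured genes, so neither value can be set against a background. The part of this RNA in any 1 ratio was not tested, but the interferon count below was also made without the members that carried 50% or more of the markers of another type, which left 371 cKO and 296 control cells; for the other lists no such count of calls was made.

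Interferon response genes were higher in cKO capillary cells. Of 83 genes listed, 80 are in the files and 59 were measured, of which 31 (52.5%) were called higher and 0 lower, against 2.37% higher over all measured genes. The median log2 ratio of the 59 was 0.70, against 0.03 over all genes. A member can be measured through the cKO library alone, so the same was computed over the 56 with at least 20 CPM in the control library, which gave 28 higher and a median of 0.59. All list members together made up 10590 CPM in the cKO library and 7175 CPM in the control library. These 31 genes were 20% of the 155 called higher. Without the members carrying other types' markers 30 of 62 measured genes were higher, and without Scrublet calls 31 of 60.

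The Ifit genes, whose proteins bind viral RNA, were among the highest ratios of all genes. Ifit3 had 451 UMIs, or 155 CPM, in the cKO library, against 87 UMIs, or 36.4 CPM, in the control library, a log2 ratio of 2.09 (1.76 to 2.44). Ifit3b had 60.6 CPM in the cKO library and 15.1 CPM in the control library, but Ifit3 and Ifit3b are close copies between which reads may be divided uncertainly. Ifit1 had 235 CPM in the cKO library and 103 CPM in the control library, a log2 ratio of 1.19. Isg15, a ubiquitin-like protein joined to other proteins in infected cells, had 350 CPM in the cKO library and 140 CPM in the control library, a log2 ratio of 1.33 (1.15 to 1.51). All 4 were thus more than 2-fold higher in cKO members, with intervals that do not reach equality.

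Transcription factors of the pathway followed the same direction at different sizes. Irf7, the factor that amplifies type I interferon responses, had 164 CPM in the cKO library and 45.6 CPM in the control library, a log2 ratio of 1.85 (1.55 to 2.16). Stat2 had 154 UMIs in the cKO library and 63 UMIs in the control library, a log2 ratio of 1.01 that was 0.14 without members showing 3 or more markers of 4 other types; with Irf9 its protein is part of the complex that binds interferon-stimulated genes. Irf9 had 97.1 CPM in the cKO library and 70.3 CPM in the control library, a log2 ratio of 0.47 that stayed under 1.5-fold. The receptor chains Ifnar1 and Ifnar2 had log2 ratios of -0.04 and 0.19. Of the 10 measured genes in the list of interferon receptors and their signal transducers, 2 were called higher, Stat2 among them. That is 20%, against 2.37% over all genes.

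Among the effectors, Ifi27l2a had 70.3 CPM in the cKO library and 15.5 CPM in the control library (log2 ratio 2.18), Ifi44 had 70.6 CPM in the cKO library and 23.8 CPM in the control library (1.57), and Oasl2, of the oligoadenylate synthetase family, had 120 CPM in the cKO library and 48.1 CPM in the control library (1.32). Ifitm3, a membrane protein that blocks virus entry, gave the most UMIs of the 31, with 1446 CPM in the cKO library and 793 CPM in the control library. Bst2, which tethers budding viruses, had 347 CPM in the cKO library and 197 CPM in the control library. The immunity-related GTPases Irgm1, Igtp, Irgm2, Iigp1 and Ifi47 were all called higher, with log2 ratios of 0.71 to 0.97. The 6 measured guanylate-binding proteins (Gbp2, Gbp3, Gbp4, Gbp5, Gbp7, Gbp9), another interferon-induced GTPase family, had log2 ratios of 0.10 to 0.49 and none was called. Irf1 (-0.02) and Psmb9 (0.03) were nearly level between the libraries. The lowest ratio of the list was that of Trim25, a ligase of the RNA sensor pathway, at -0.41. The plot of these genes by library draws only genes called higher. Their calls required an interval excluding equality, so the separation of the libraries there follows largely from the choice.

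**Figure D2:**
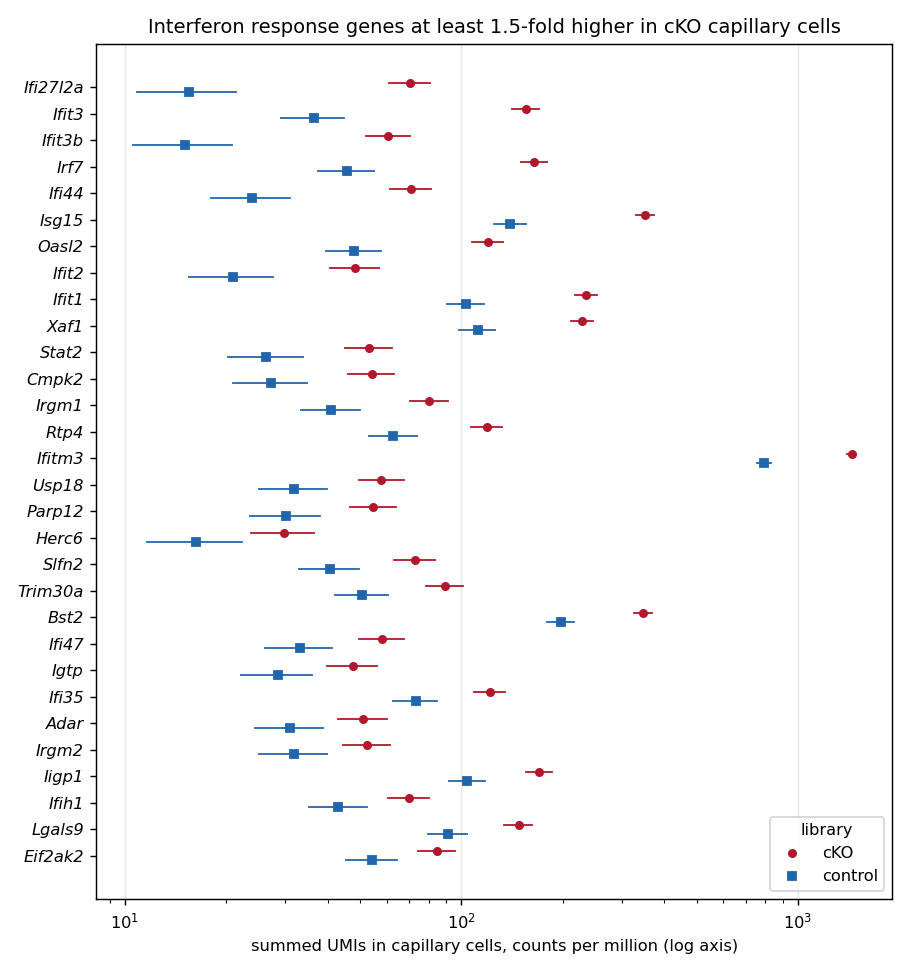
CPM of the summed capillary cells (log x axis) for 30 of the 31 interferon response genes called higher, with cKO as circles and control as squares; lines are exact Poisson 95% intervals, and genes run from the largest ratio at the top (Ifi27l2a, log2 2.18) to the smallest (Eif2ak2, 0.63). Each cKO point lies right of its control point, as the call requires, from 29.6 CPM for Herc6 to 1446 CPM for Ifitm3.

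The promoters of these genes are shown because many hold the interferon-stimulated response element, the site bound by the complex that holds Stat2 and Irf9. It was searched as GAAANNGAAA on both strands in RefSeq windows of 300 bases (250 before to 50 after the start site; build GRCm38.p6, the patch release of the files' mm10). Of the 31 genes called higher, 26 have a window and 14 of these (53.8%) hold the motif, as do 10 of the 22 list members with a window that were measured and called neither (45.5%). Over all genes with a window the share is 3.99%. The 200 bases before the start sites of 4 genes are given 5′ to 3′ on the gene's strand, with each match in capitals. Ifit3 lies at chr19:34583329-34583528 on the plus strand, Ifit1 at chr19:34640689-34640888 on the plus strand, Isg15 at chr4:156200819-156201018 on the minus strand and Irf7 at chr7:141266425-141266624 on the minus strand.
Ifit3: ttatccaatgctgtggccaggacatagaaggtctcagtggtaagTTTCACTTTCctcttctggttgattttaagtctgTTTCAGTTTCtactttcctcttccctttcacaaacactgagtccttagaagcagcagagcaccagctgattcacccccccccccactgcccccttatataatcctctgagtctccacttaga
Ifit1: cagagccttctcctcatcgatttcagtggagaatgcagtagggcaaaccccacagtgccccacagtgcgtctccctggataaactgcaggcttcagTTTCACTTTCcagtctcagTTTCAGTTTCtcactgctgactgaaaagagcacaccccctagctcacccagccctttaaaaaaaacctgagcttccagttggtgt
Isg15: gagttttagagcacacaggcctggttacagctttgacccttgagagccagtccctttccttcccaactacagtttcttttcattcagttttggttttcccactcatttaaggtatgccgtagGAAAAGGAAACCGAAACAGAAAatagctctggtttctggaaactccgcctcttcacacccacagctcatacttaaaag
Irf7: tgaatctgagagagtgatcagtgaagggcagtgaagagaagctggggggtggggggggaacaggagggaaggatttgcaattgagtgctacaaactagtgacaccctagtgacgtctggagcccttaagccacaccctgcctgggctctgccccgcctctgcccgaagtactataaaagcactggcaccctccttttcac
Ifit3 and Ifit1 hold 2 matches each, the first beginning 156 bases before the start site in Ifit3 and 104 bases in Ifit1. Isg15 holds 3 matches that overlap each other, beginning 78 bases before it. Irf7 holds none in its window although its ratio was 1.85, which says only that these letters are absent there. The motif shows which genes can be grouped by sequence and does not show what bound it in these cells.

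The difference was spread over the members. Thinned to 1000 UMIs, cKO members held a median of 10 interferon response UMIs (mean 11.2, SD 6.54 over 460 cells), against 7 in control members (mean 7.60, SD 4.25 over 423 cells). The tenth of cells with the most such UMIs held 22.2% of them in the cKO library and 22.1% in the control library. At this depth Isg15 was seen in 24.1% of cKO members (20.3% to 28.3%), against 11.3% of control members (8.49% to 14.8%), and in 0.396% of cKO and 0.255% of control oligodendrocytes. Irf7 was seen in 16.5% of cKO and 4.96% of control members, and in 0.198% of cKO and 0% of control oligodendrocytes. Without thinning, the share with an Isg15 UMI was 60.2% in cKO and 33.8% in control members. The highest value was 57 in a cKO cell and 22 in a control cell.

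**Figure D3:**
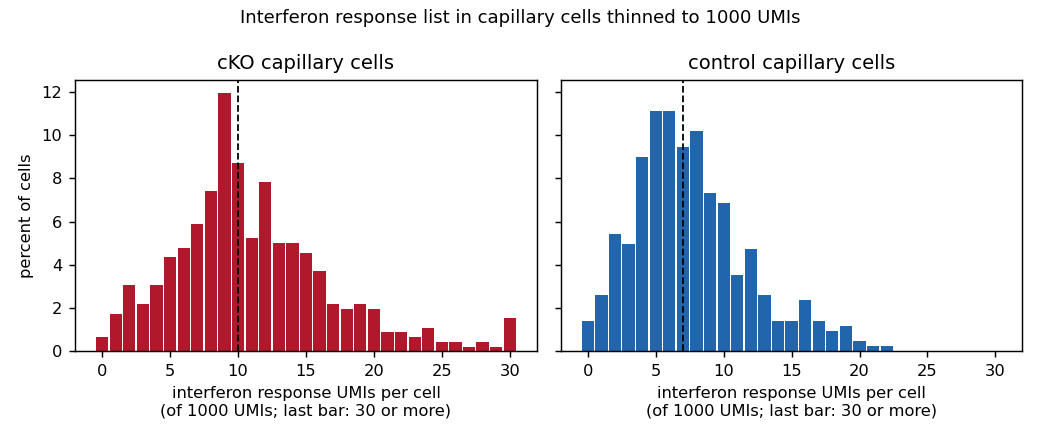
Percent of capillary cells (y axis) by the number of interferon response UMIs per cell after thinning to 1000 UMIs (x axis, the last bar holding 30 or more), cKO on the left and control on the right; dashed lines are medians. The cKO distribution is shifted to the right, with a median of 10 against 7. It overlaps the control distribution and does not separate into groups.

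The same list was followed in arterial and venous cells and in microglia of the same libraries, which share hosts and droplets with the members. In arterial cells 22 of 62 measured genes were higher (background 2.96% higher and 3.95% lower over all genes measured there) and the median log2 ratio was 0.43. In venous cells 36 of 62 were higher (background 2.68% higher), with a median of 0.73, and in microglia 33 of 50 (background 3.41% higher and 2.52% lower), with a median of 0.79; 0 were lower in any of the 3 classes. With only members at 20 CPM or more in the control library, 20 of 59 were higher in arterial cells (median 0.43), 32 of 58 in venous cells (0.68) and 24 of 41 in microglia (0.72), beside the 28 of 56 in capillary cells (0.59). Isg15 had 347 CPM in cKO and 133 CPM in control arterial cells, 408 CPM in cKO and 136 CPM in control venous cells, and 69.0 CPM in cKO and 20.3 CPM in control microglia. Its level in capillary cells was above that in microglia in each library. For Ifi27l2a the order was the other way, with 681 CPM in cKO and 109 CPM in control microglia, above the members. The list median was also above 0 in the other classes compared. Pericytes had 11 of 37 measured genes higher and 0 lower (background 4.29% higher, median 0.76). Astrocytes had 19 of 26 higher and 0 lower (background 0.75%, median 1.23). Oligodendrocytes had 2 of 6 higher and 1 lower (background 0.67%, median 0.42). Among members at 20 CPM or more in the control library, 5 of 28, 5 of 11 and 1 of 6 were higher. The medians were then 0.62, 0.53 and 0.19. Whether the list's ratio differs between the cell types was not tested.

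Antigen presentation by MHC class I, which interferons also induce, had a list median near that of all genes. Of 18 measured genes 2 (11.1%) were called higher and 0 lower, against 2.37% higher over all genes, with a median log2 ratio of 0.10. H2-T23, the gene of the non-classical molecule Qa-1, had 241 CPM in the cKO library and 124 CPM in the control library, a log2 ratio of 0.96 (0.76 to 1.16). Tap1, a subunit of the peptide pump into the endoplasmic reticulum, had 35.1 CPM in the cKO library and 20.1 CPM in the control library, a log2 ratio of 0.81 that was 0.24 without members showing 3 or more markers of 4 other types. Its partner Tap2 had a log2 ratio of 0.49. H2 genes are close copies of each other, so their single values are uncertain. Microglia of the same libraries had 9 of 20 class I genes higher (3.41% over all genes there) and a median of 0.49. With only members at 20 CPM or more in the control library, 7 of 18 were higher in microglia and the median was 0.44. Venous cells had 3 of 19 higher (2.68% over all genes there) and a median of 0.41.

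Genes of endothelial activation and the acute phase were near level in capillary cells. Of 48 listed, 16 were measured, 1 was called higher (6.25%, against 2.37% over all genes) and 0 lower, and the median log2 ratio was 0.05. The one was Cebpd, a transcription factor of the acute phase, with 269 CPM in the cKO library and 169 CPM in the control library, a log2 ratio of 0.67. Icam1, an adhesion molecule for leukocytes, had 23.1 CPM in cKO and 24.3 CPM in control members. In venous cells 9 of 22 measured genes were higher and 1 lower, with a median of 0.47. Over all genes there, 2.68% were higher and 3.97% lower. With only members at 20 CPM or more in the control library, 7 of 20 were higher and the median was 0.39. Lcn2, the iron-binding lipocalin of the acute phase, had 267 CPM in cKO and 32.5 CPM in control venous cells, against 9.99 CPM in cKO and 5.02 CPM in control members. Icam1 had 59.7 CPM in cKO and 27.4 CPM in control venous cells. In arterial cells 0 of 16 were called in either direction. The plot of list medians sets these classes side by side.

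**Figure D4:**
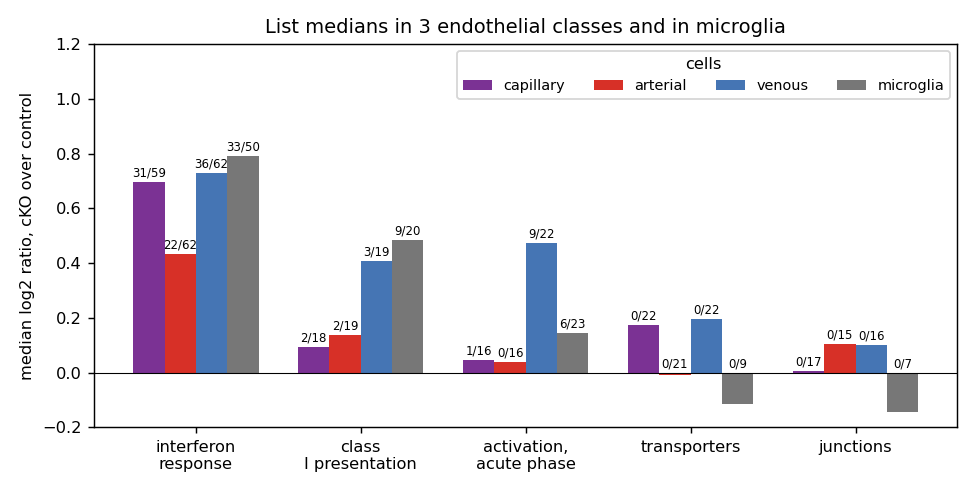
Median log2 ratio, cKO over control (y axis), of 5 gene lists in capillary, arterial and venous endothelial cells and in microglia; numbers over the bars are members called higher of members measured, and bars carry no error because there is 1 library per genotype. The interferon list is above 0.4 in each class, while the activation list is 0.05 in capillary cells and 0.47 in venous cells.

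Of the barrier genes, the junction list was level. Of 17 measured members 0 were higher and 1 lower (5.88%, against 2.40% over all genes), and the median log2 ratio was 0.01. Cldn5 had 3993 CPM in the cKO library and 3587 CPM in the control library. Ocln, the junction protein occludin, had 236 CPM in the cKO library and 215 CPM in the control library, and Tjp1, the scaffold ZO-1, had 599 CPM in the cKO library and 607 CPM in the control library. Esam, an adhesion molecule of endothelial contacts, had the highest ratio, 0.22. The member called lower was Jam3, with 40 UMIs in the cKO library and 65 UMIs in the control library, of which 46.2% lay in 5 control cells; it was under 1.5-fold in 3 of 16 alternatives.

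Transporter genes were slightly higher without passing the threshold. Of 22 measured, 0 were called in either direction, 18 had ratios above 0, and the median log2 ratio was 0.18, with a range of -0.23 to 0.38. Slc2a1, the glucose carrier GLUT1, had 1454 CPM in the cKO library and 1254 CPM in the control library. Slc7a5, the large neutral amino acid carrier, had 813 CPM in the cKO library and 622 CPM in the control library. The efflux pump genes Abcg2 and Abcb1a (P-glycoprotein) had log2 ratios of 0.38 and 0.18. Slc16a1, the lactate carrier, had the lowest, -0.23. Oligodendrocyte markers were also lower in the cKO members, as given above, and their part in these ratios was not tested.

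In the list of transcytosis and lipid genes, 1 of 21 measured members was higher and 1 lower, and the median log2 ratio was 0.08. Each call is 4.76% of the list, against 2.37% higher and 2.40% lower over all genes. The higher gene was Tfrc, the transferrin receptor that carries iron into the brain. It lies at chr16:32608920-32632794 on the plus strand (mm10) and had 1441 UMIs, or 496 CPM, in the cKO library, against 633 UMIs, or 265 CPM, in the control library, a log2 ratio of 0.91 (0.77 to 1.04) that was 0.53 with the rule on thinned cells. Thinned to 1000 UMIs, 36.1% of cKO members showed it, against 21.5% of control members, with 1.40% of cKO and 0.924% of control microglia as background. Its log2 ratio was 0.75 in venous cells, where it had 541 CPM in the cKO library and 323 CPM in the control library, and 0.43 in arterial cells. Mfsd2a, the lipid carrier that restrains transcytosis, had 285 CPM in the cKO library and 225 CPM in the control library. Plvap, the diaphragm protein of leaky endothelium, had 1 UMI in the cKO library and 101 UMIs in the control library, 96.0% of them in 5 cells, and so describes a few control cells.

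The Wnt and Norrin list had 20 measured members, 0 called in either direction and a median log2 ratio of 0.17, with 16 ratios above 0. Its largest ratios were those of feedback targets of the pathway. Nkd1 had 209 CPM in the cKO library and 143 CPM in the control library (log2 ratio 0.55), Apcdd1 had 387 CPM in the cKO library and 283 CPM in the control library (0.45), and Axin2 had 90.2 CPM in the cKO library and 66.5 CPM in the control library (0.44). The receptor gene Fzd4 and the effector gene Lef1 had log2 ratios of -0.03 and 0.03. None of these reached 1.5-fold.

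Among capillary surface genes, Ly6a, the surface protein Sca-1, had 3464 CPM in the cKO library and 2147 CPM in the control library, a log2 ratio of 0.69 (0.64 to 0.74). Ly6e, of the same family, had 1749 CPM in the cKO library and 1471 CPM in the control library and was called neither. Ly6c1 is 1 of the 6 genes that chose the cells, so its values are a description: it had 4505 CPM in the cKO library and 2952 CPM in the control library, a log2 ratio of 0.61 that was under 1.5-fold in 7 of 16 alternatives. Ly6c1 was also called higher in arterial cells, at a log2 ratio of 0.62, and in venous cells, at 0.60. Ly6a was also called higher in venous cells, at a log2 ratio of 0.69. Ly6 genes resemble each other in sequence, so single values carry that uncertainty. In the list of 26 capillary identity genes, 24 were measured, and Ly6a and Tfrc were the 2 called higher (8.33%, against 2.37% over all genes).

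Growth factor and remodelling lists held few calls. Of 18 measured VEGF and angiopoietin genes 0 were higher and 1 lower (5.56%, against 2.40% over all genes). It was Nrp2, a co-receptor for VEGF-C and semaphorins, with 32.7 CPM in the cKO library and 56.5 CPM in the control library. Of 18 measured tip cell and tumour vessel genes 3 (16.7%) were lower, against 2.40% over all genes, 0 were higher, and the median was 0.00. Those 3 were Plvap, Igfbp3, an insulin-like growth factor binding protein with 93.9% of its control UMIs in 5 cells, and Ednrb, an endothelin receptor also found in astrocytes, with 30.3 CPM in the cKO library and 62.7 CPM in the control library. Angpt2, which loosens vessels, had 29.6 CPM in the cKO library and 20.5 CPM in the control library and was called neither. Notch, TGF-beta and BMP, basement membrane, shear stress, and glycolysis and hypoxia lists had 0 calls among 10, 17, 20, 21 and 26 measured genes. Their medians were 0.03, 0.04, 0.04, -0.04 and -0.04. Klf2, the main flow-induced factor, had 1913 CPM in the cKO library and 2157 CPM in the control library. Of 30 endothelial transcription factors 1 was called, Ets2, which was lower (3.33%, against 2.40% lower over all genes). Ets2 had 90.2 CPM in the cKO library and 146 CPM in the control library, and was under 1.5-fold in 2 of 16 alternatives.

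**Figure D5:**
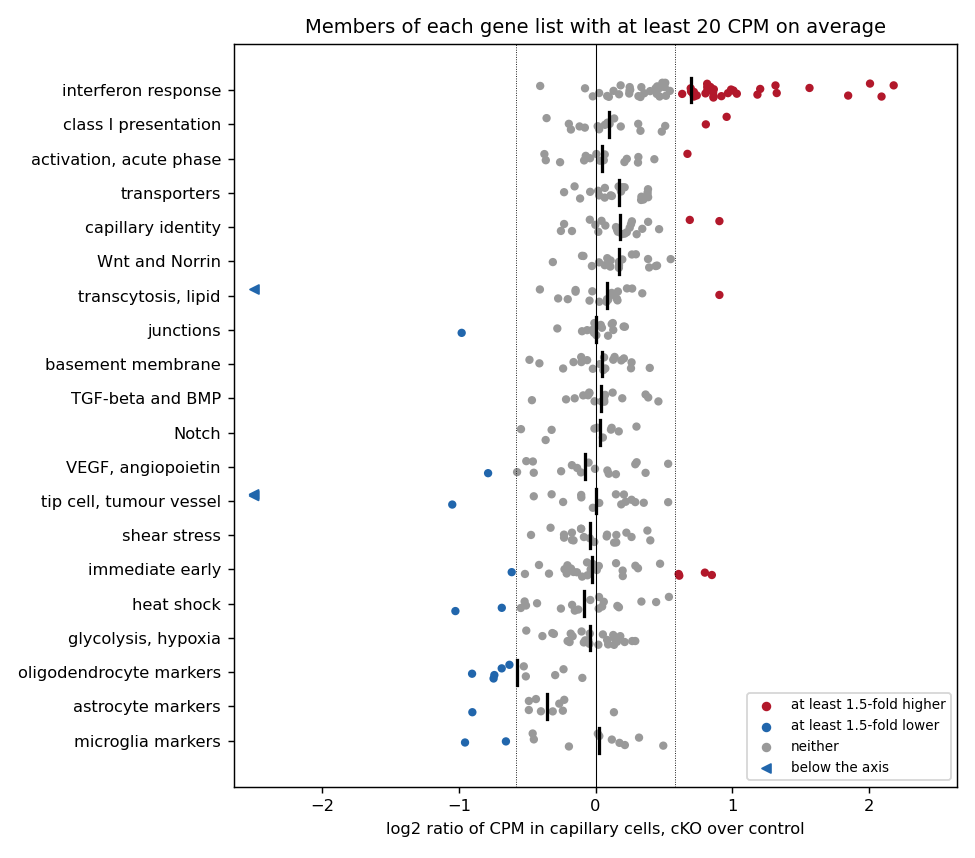
Log2 ratio of CPM in capillary cells, cKO over control (x axis), for every measured member (points) of 20 gene lists, with the list median as a bar and 1.5-fold as dotted lines; triangles are values below the axis. The interferon list has a median of 0.70 and 31 members past the line, and the oligodendrocyte markers have a median of -0.58. Of the barrier lists, junctions have a median of 0.01, transporters of 0.18, and Wnt and Norrin genes of 0.17. The cell cycle list is not drawn.

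Stress genes were mixed. Of 28 measured immediate early genes, which tissue dissociation also induces, 4 (14.3%, against 2.37% over all genes) were higher (Fos, Ccn2, Ier3, Egr1) and 1 lower (Nr4a1), and the median was -0.03. Fos had 83.0 CPM in the cKO library and 46.0 CPM in the control library, and Nr4a1 had 48.9 CPM in the cKO library and 74.9 CPM in the control library. Without the members that carried 50% or more of the markers of another type, the log2 ratio of Egr1 was -0.96 against 0.61 with them, and Nr4a1 reached 0.55 among members with no arterial or venous gene. Ier3 was under 1.5-fold in 7 of 16 alternatives, Egr1 in 6, Nr4a1 in 5 and Fos in 2. Of 20 heat shock genes 2 (10%, against 2.40% over all genes) were lower, Hspa1b and Cryab. For Cryab, 5 cells held 81.2% of the UMIs in the cKO library and 73.0% in the control library. Hspa1b was under 1.5-fold in 4 of 16 alternatives. The metallothioneins Mt1 and Mt2, which bind zinc and copper, were lower, with 1151 CPM of Mt1 in the cKO library and 1906 CPM in the control library, and 204 CPM of Mt2 in the cKO library and 383 CPM in the control library. When 3 of 6 endothelial genes sufficed, the log2 ratio was -0.18 for Mt1 and -0.29 for Mt2. The p53 target list had 0 of 11 higher and 1 lower (9.09%, against 2.40% over all genes).

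The cell cycle list had 4 of 11 measured genes higher (36.4%, against 2.37% over all genes) and 0 lower, with a median log2 ratio of 0.55. The 4 were Mcm6, Mcm7, Ccnd2 and Hmgb2. With only members at 20 CPM or more in the control library, 2 of 10 were higher and the median was 0.21. Arterial and venous cells had list medians of 0.10 and -0.07. Mcm7 was under 1.5-fold in 9 of 16 alternatives, Mcm6 and Hmgb2 in 3 each. Among the remaining genes with the highest and lowest ratios, cell numbers matter. Hist1h2ap (log2 ratio 5.15) and Hist1h2ae (4.20), replication-dependent histone genes, had 98.3% and 96.8% of their cKO UMIs in 5 cells. Ccnd2, the cyclin D2 gene, was higher with a log2 ratio of 1.12 and -0.74 without members carrying other types' markers, with 69.6% of its cKO UMIs in 5 cells, and Hmgn2 with 56.2%. At least 6 of the 11 markers of neurons and neuroblasts were found in 7 cKO and 3 control members. Hist1h2ap, Hist1h2ae, Ccnd2 and Hmgn2 therefore describe a handful of cells rather than the members at large. Lower genes with UMIs spread over many cells were Alpl, the tissue-nonspecific alkaline phosphatase of arterial and capillary cells, with 73.7 CPM in the cKO library and 159 CPM in the control library (log2 ratio -1.11), and Insig1, which restrains sterol synthesis, with 32.4 CPM in the cKO library and 73.2 CPM in the control library (-1.18). Alpl was lower in venous cells too, at a log2 ratio of -1.16, and in arterial cells at -0.69. Lars2, a mitochondrial leucyl-tRNA synthetase, had 855 CPM in the cKO library and 1799 CPM in the control library, and rRNA-like gene models took 1.96% of capillary UMIs in the cKO library and 3.84% in the control library; whether the 2 are linked was not tested.

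Of the semaphorin and plexin list, the family of the targeted gene, 13 members were measured, 0 were higher and 3 lower (Nrp2, Sema6d, Plxnb1), against 2.40% lower over all genes, and the median was -0.05. Plxnb1, the relative of Plxnb2, had 17.2 CPM in the cKO library and 26.3 CPM in the control library, a log2 ratio of -0.61 whose interval reached -0.05. Plxnb1 and Sema6d were each under 1.5-fold in 6 of 16 alternatives and Nrp2 in 2, where it came to -0.23 with the rule on thinned cells. Sema3c, a secreted semaphorin, had 445 CPM in the cKO library and 336 CPM in the control library and was called neither.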

How the data were processed

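Raw UMI counts (gene by barcode) were deposited by the authors for each library; Cell Ranger 7.1.0 and build mm10 come from the submitters' processing notes. The annotation release and the treatment of intronic reads were not stated in the sources read here. The cKO matrix was deposited with 2377349 barcodes, unfiltered, and the control matrix with 10942. Counts of 32285 genes were used as deposited; 99.6% of their identifiers are in GENCODE vM21, which gave gene coordinates. Kept cells had at least 1000 UMIs, 500 genes and at most 10% mitochondrial UMIs. UMI counts were summed over the capillary cells of a library (2903158 UMIs in the cKO library, 2391270 in the control library) and scaled to CPM. CPM carry exact Poisson, shares exact Clopper-Pearson and log2 ratios exact conditional 95% intervals. Ratios and intervals were tested on simulated Poisson counts, the model the intervals assume. Such counts leave out the gathering of UMIs in few cells, so coverage on the real counts was not tested. Doublets were scored with Scrublet per library (scanpy 1.11.5, expected share 6%). Comparison cell types were set by marker genes. Scripts ran in Python 3.11.15 with pandas 2.3.3, scipy 1.17.1 and numpy 2.4.6.

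The members and the gene lists were chosen with earlier results of these data known. Named genes are the 6 endothelial genes of the rule, Plxnb2, the 10 highest and 10 lowest ratios with at least 50 CPM and 30 UMIs in a library, up to 6 members of each list with the largest absolute ratios, the 12 highest levels, the 10 genes highest over other kept cells, and the 6 that differ most from arterial and venous cells in each direction. Mitochondrial, ribosomal protein, haemoglobin, immunoglobulin, rRNA-like, sex-linked and unnamed gene models and other cell types' markers were left out of the extremes. Other genes were named for their role, after their values were seen. A few genes picked by these criteria are left out of the text and of the plot of interferon genes.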

Additional observations from a re-analysis of the deposited data

Results flagged for a closer look

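Igfbp3, Lyz2 and Ccnd2 were called in opposite directions in capillary cells and in arterial or venous cells of the same libraries; with 1 library per genotype these differences were not tested. Igfbp3 had a log2 ratio of -3.25 in capillary cells, where 93.9% of its control UMIs lay in 5 cells, and of 1.96 in arterial cells, where it had 137 UMIs in the cKO library and 25 in the control library. Lyz2, the lysozyme gene of macrophages and microglia, had a log2 ratio of -2.05 in capillary cells and 2.09 in venous cells, with 148 UMIs in the cKO library and 22 in the control library there. Ccnd2 had a log2 ratio of 1.12 in capillary cells, -0.79 in arterial cells and -0.80 in venous cells, and 69.6% of its cKO UMIs in capillary cells lay in 5 cells.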

How the results depend on the processing

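No paired analysis was possible because each genotype has 1 library and the groups share only replicate number 1; leaving out a replicate was not possible for the same reason. Of 274 recomputed summary values 250 moved by less than their interval or 1.5 times, 24 moved and 0 were marked reversed. That mark was open only to values whose main interval excluded 0, and not to counts of calls. Medians near 0 did change sign in some alternatives, for junction, tip cell, activation, shear stress, immediate early and heat shock genes. The capillary share of endothelial cells, cKO minus control, was -4.69 percentage points, and 0.59 at its highest over 11 alternatives. The interferon median was 0.47 to 0.76 over 18 alternatives. Its members called higher were 9 at 100 CPM or more and 11 at a fold of 2, and were within 1.5 times of 31 otherwise. Genes called lower were 247 with a mitochondrial limit of 20%. Genes called higher were 286 with 3 of 6 endothelial genes. Higher and lower counts were 56 and 96 with the rule on thinned cells, 281 and 289 with no arterial or venous gene, 409 and 511 with 1 UMI in each library as the minimum, 20 and 19 at 100 CPM, and 27 and 31 at a fold of 2. List medians became 0.18 for transcytosis (limit of 20%), -0.057 for junctions and 0.049 for Wnt (3 of 6 genes), -0.10 for activation (cells with 3 or more markers of 4 other types left out), -0.17 for immediate early genes (cells with 50% or more of another type's markers left out, chosen after seeing the data), and for junctions -0.026 with ratios centred on the median and -0.028 with mitochondrial, rRNA-like and haemoglobin genes out of the total. The capillary share, cKO minus control, was 3.28 percentage points, and 8.91 on thinned cells, 0.99 with no arterial or venous gene and 1.55 without cells of 3 or more markers, which left 121 cKO and 56 control cells. Reversed log2 ratios were, on thinned cells by the rule, Igfbp3 1.46, Lyz2 0.72 and Ccnd2 -0.30. With no arterial or venous gene they were Nr4a1 0.55, Egr1 -0.36 and Ptgds 0.68. Without cells of 3 or more markers they were Igfbp3 0.41, Lyz2 1.41, Fos -0.0086, Egr1 -1.54 and Mcm7 -1.14. Without cells of 50% or more of another type's markers they were Hist1h2ae -0.13, Egr1 -0.96, Ccnd2 -0.74 and Mcm7 -0.45. Without cells with a Plvap UMI, also chosen after seeing the data, Igfbp3 was 1.26. With summed cells thinned they were Egr1 -0.034, Mcm6 -0.90, Mcm7 -0.51 and Wnt5a -0.12. The cause was not tested. Tfrc stayed between 0.53 and 1.75, under 1.5-fold in 1 of 16 alternatives, and Ly6c1 between 0.49 and 0.73, under it in 7 of 16. Averaging over cells gave list medians and ratios but no count of calls. At these depths genes under 20 CPM were not compared.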
